A study of Mus musculus with 4 samples.

Results

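The naive pluripotency genes Klf2, Klf4, Klf5, Esrrb, Tfcp2l1, Zfp42, Prdm14, Nr0b1, Tbx3 and Tcl1 were followed in mouse embryonic stem cells that had been directed towards mesoderm. They were taken by gene symbol from a table of 51826 genes, and all 10 were found. Of these, 9 encode transcriptional regulators and 1, Tcl1, encodes a cofactor of the AKT kinase. RNA was measured at day 3 in 2 libraries of Stk40-/- cells and 2 libraries of wild-type cells, all labelled C57BL/6. Stk40 encodes a pseudokinase, and the sources used here do not say how the allele was made or whether each genotype is 1 line. Both genotypes had been kept on feeder fibroblasts with LIF at 1000 U/ml, the GSK3 inhibitor CHIR99021 at 3 uM and the MEK inhibitor PD0325901 at 1 uM. After 1 passage without feeders both received BMP4 (10 ng/ml) during 2 days, followed by 1 day in CHIR99021 (1 uM) and 0.5% DMSO. The serum replacement KSR was at 1% from day 0 to day 2 and at 15% from day 2 to day 3, in both genotypes. Separate cultures are not mentioned for libraries of a genotype, and p-values reflect only the spread between these libraries, which may be technical.

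The naive state is that of the inner cell mass just before implantation, and it is held in culture by LIF with inhibitors of MEK and GSK3. LIF acts through STAT3 on Klf4 and Tfcp2l1, GSK3 inhibition relieves repression by the TCF factor TCF7L1 of Esrrb and other genes, and MEK inhibition stabilises the KLF2 protein. When these inputs are withdrawn the naive factors are normally lost first, while Pou5f1 and Sox2 persist for longer. The day 3 cells had been without LIF and the MEK inhibitor since the start of differentiation. No library from undifferentiated cells was analysed here, so the change from the starting state has no value.

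The promoters shown belong to the members on which the results below turn. Zfp42 and Klf4 were the only 2 tested members whose genotypes did not overlap, in opposite directions, and Klf2 had the largest difference between libraries of 1 genotype on the log2(TPM + 1) scale, in Stk40-/- cells. Sequences are from RefSeq on GRCm38.p6 and hold the bases before the start of the gene, with matches to the searched motifs in capitals.
Zfp42, GRCm38 chr8:43307010-43307259, minus strand, 250 bases: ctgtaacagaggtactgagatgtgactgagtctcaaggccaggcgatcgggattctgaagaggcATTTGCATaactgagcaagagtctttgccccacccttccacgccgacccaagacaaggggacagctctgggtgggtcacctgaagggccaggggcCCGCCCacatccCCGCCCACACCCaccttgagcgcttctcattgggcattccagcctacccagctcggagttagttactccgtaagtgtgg
Klf4, GRCm38 chr4:55532476-55532725, minus strand, 250 bases: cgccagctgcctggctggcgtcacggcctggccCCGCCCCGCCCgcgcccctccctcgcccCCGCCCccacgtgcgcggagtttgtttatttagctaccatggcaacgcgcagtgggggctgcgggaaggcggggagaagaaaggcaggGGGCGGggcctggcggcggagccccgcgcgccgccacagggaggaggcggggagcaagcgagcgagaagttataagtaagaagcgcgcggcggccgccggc
Klf2, GRCm38 chr8:72318812-72319032, plus strand, 221 bases: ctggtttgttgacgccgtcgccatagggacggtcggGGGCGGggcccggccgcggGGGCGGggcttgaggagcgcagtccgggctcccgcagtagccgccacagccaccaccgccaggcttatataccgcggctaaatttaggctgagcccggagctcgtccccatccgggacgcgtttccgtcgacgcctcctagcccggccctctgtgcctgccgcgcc
Of the 10 members 7 had a promoter in the RefSeq table used. The 250 bases before each listed start were searched on both strands, and the Klf2 window printed was shortened to 221 bases, to end before the GENCODE start. The octamer ATTTGCAT, which OCT4 and related factors bind, was found in Zfp42 alone of the 7 and in 1.60% of 32851 promoters. The KLF motif CCACACCC was also found in Zfp42 alone of the 7, where it overlaps the end of a GC box, and in 3.20% of promoters. The GC box GGGCGG was found in Klf2, Klf4, Tcl1 and Zfp42 and in 32.7% of promoters. The STAT motif TTCNNNGAA was found in the upstream promoter listed for Esrrb, not in its downstream one, and in 7.02% of promoters. The ESRRB motif TCAAGGTCA (0.387% of promoters) and the TCF motif CTTTGATC (0.801%) were found in none of the 7. A match describes the letters only.

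Values are TPM, a share of all transcripts that takes their length into account, so levels of different genes can be compared. Where 2 values are given for a genotype, that of library 1 stands before that of library 2. The level of a gene in bulk RNA cannot tell fewer cells that express it from less RNA in each cell. Fold changes are log2 values of Stk40-/- over wild type computed from TPM + 1, so those of low genes are understated. They were tested with limma over the 15739 genes that averaged 1 TPM or more. As a check of the labels, Stk40 itself had 3.54 and 3.17 TPM in Stk40-/- cells, against 28.9 and 39.9 TPM in wild-type cells. Even Stk40, at a log2 fold change of -3.01 (SE 0.21), was not called (limma adjusted p = 0.139). The absence of a call is therefore no evidence of equal levels. No gene passed an adjusted p of 0.05 in limma (0 of 15739, 0% called in either direction, with 1730 genes or 11.0% at an unadjusted p below 0.05). The median log2 fold change over all tested genes was 0.07. Mitochondrial genes made up 8.62% to 10.1% and ribosomal protein genes 14.3% to 15.5% of TPM in the libraries.

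At day 3 the naive genes were present at low to middling levels in both genotypes. Their order by mean was Klf5, Zfp42, Klf2, Esrrb, Tfcp2l1, Tbx3, Klf4, Nr0b1, Tcl1 and Prdm14. The mean over the 4 libraries was 19.7 TPM for Klf5, 15.3 TPM for Zfp42 and 13.2 TPM for Klf2, and these neighbours could not be ordered beyond their spread. Esrrb averaged 7.31 TPM and lay below every value of Klf5 and Zfp42. Tfcp2l1 averaged 3.45 TPM and lay below every value of Esrrb. From Tfcp2l1 on, through Tbx3 at 2.33 TPM, Klf4 at 2.15 TPM and Nr0b1 at 1.42 TPM, each overlapped the next in that order. Tcl1 averaged 0.396 TPM and Prdm14 0.0666 TPM, so 8 of the 10 members passed the filter and were tested. In comparison, Pou5f1, the core factor shared by naive and primed cells, had 372 and 465 TPM in Stk40-/- cells and 370 and 473 TPM in wild-type cells. Klf5, Zfp42 and Klf2 together held 68.6% and 76.3% of the summed TPM of the 10 members in the Stk40-/- libraries and 78.6% and 71.2% in the wild-type libraries.

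**Figure D1:**
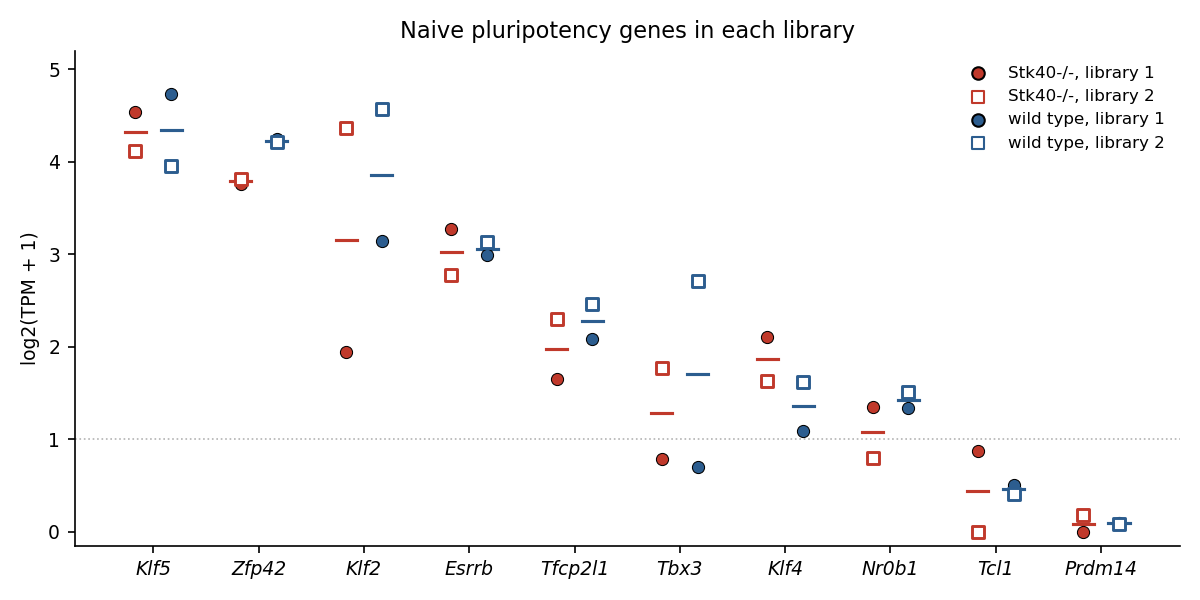
Expression of the 10 naive genes as log2(TPM + 1), ordered by mean; each point is 1 library, short lines are genotype means, and the dotted line marks 1 TPM. Zfp42 separates the genotypes with little spread, while Klf2 and Tbx3 spread widely within both.

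Between genotypes the 8 tested members showed no call. In limma 0 of 8 passed, with adjusted p from 0.407 to 0.989. Fold changes were negative in 7 and positive in 1, with a median of -0.32, while 41.4% of all tested genes were negative. Groups did not overlap in 2 of the 8 members, 1 higher and 1 lower, against 44.0% of all tested genes (27.5% higher and 16.6% lower), which is below that background share. The split of all genes depends on the scaling: with each library centred on its median 18.7% were higher and 25.1% lower without overlap and 52.3% were negative, while the 8 members kept their signs. In 7 of the 8 the difference between genotypes was smaller than the larger of the 2 differences between replicates. The exception was Zfp42. The 10 members summed to 54.8 and 64.1 TPM in Stk40-/- cells and to 65.4 and 76.9 TPM in wild-type cells. Both Stk40-/- sums lay below both wild-type sums, and the exact two-sided permutation test gave p = 0.333, the smallest p that 2 against 2 libraries allow.

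**Figure D2:**
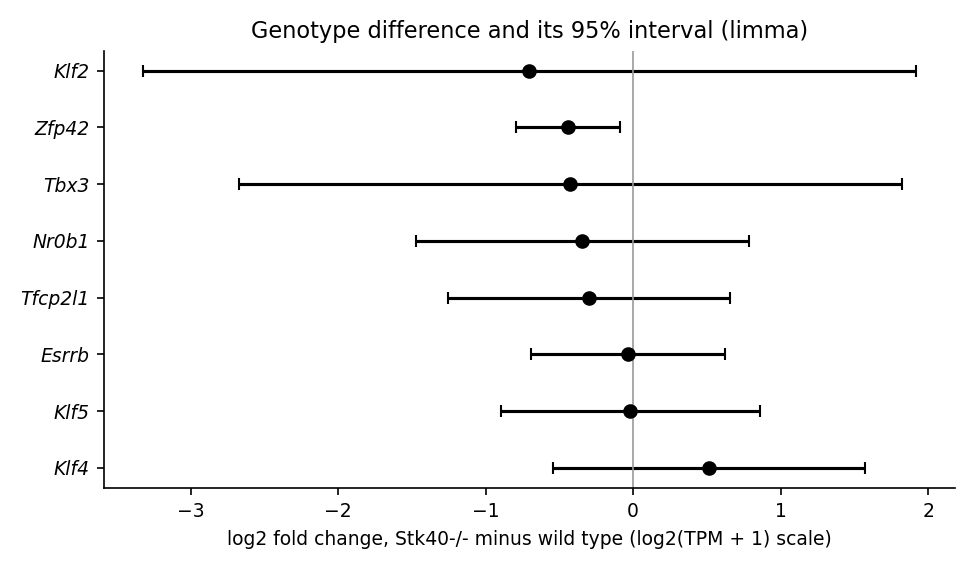
The log2 fold change of each tested member, Stk40-/- minus wild type, with its 95% interval from limma. The interval of Zfp42 is the only 1 of 8 that leaves out 0 before adjustment for the 15739 genes tested.

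Zfp42, also called Rex1, encodes a zinc finger protein widely used as a reporter of the naive state (ENSMUSG00000051176.6; chromosome 8, 43295063 to 43306980, minus strand). It had 12.6 and 13.0 TPM in Stk40-/- cells and 18.0 and 17.5 TPM in wild-type cells. Both Stk40-/- values were lower than both wild-type values, and replicates of either genotype were nearly equal. The means were 12.8 ± 0.314 TPM and 17.8 ± 0.341 TPM in the same order (SD, n = 2 each). Its log2 fold change was -0.44 (SE 0.13, 95% interval -0.79 to -0.09). The limma adjusted p over all genes was 0.407, and Zfp42 was the 1 member among the 11.0% of tested genes below 0.05 before adjustment. The replicate differences of Zfp42, 0.05 log2 units in Stk40-/- and -0.04 in wild-type cells, were in size above those of only 15.9% and 11.4% of all tested genes. Among the 557 other protein-coding genes of chromosome 8 that averaged 5 TPM or more the median log2 fold change was 0.07, the same as over all such genes in the genome. Within 2 Mb of Zfp42 there were 4 such genes, with a median of 0.17.

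Prdm14 encodes a PR domain protein that represses FGF receptor and DNA methyltransferase genes in naive cells and is needed for primordial germ cells (ENSMUSG00000042414.7; chromosome 1, 13113457 to 13127163, minus strand). It was listed at 0 and at 0.131 TPM in Stk40-/- cells and at 0.0714 and 0.0639 TPM in wild-type cells. All 4 values were close to 0, and no difference was detectable at these levels. The germ cell list gave 6 tested genes of 8, 3 positive and 3 negative with 0 called and 0 free of overlap, beside 44.0% of all tested genes. In it, Tfap2c, an AP-2 factor of germ cells and trophoblast, had 21.8 and 21.1 TPM in Stk40-/- cells and 13.5 and 21.3 TPM in wild-type cells. Prdm1 and Nanos3 averaged below the filter and were not tested, and both were lower in Stk40-/- cells without overlap. Prdm1 had 0.315 and 0.805 TPM in Stk40-/- cells and 1.20 and 1.30 TPM in wild-type cells. Nanos3 had 0.356 and 0 TPM in Stk40-/- cells and 1.41 and 1.22 TPM in wild-type cells.

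The KLF factors KLF2, KLF4 and KLF5 bind similar GC-rich DNA through 3 zinc fingers and can stand in for one another in keeping embryonic stem cells naive. Klf5 was on average the most abundant of them (ENSMUSG00000005148.7; chromosome 14, 99298691 to 99315036, plus strand). It had 22.2 and 16.3 TPM in Stk40-/- cells and 25.6 and 14.5 TPM in wild-type cells. The wild-type values enclosed both Stk40-/- values. Its log2 fold change was -0.02 (SE 0.32, 95% interval -0.90 to 0.86, limma adjusted p = 0.989), so a difference of up to almost 1 log2 unit either way lies within the interval.

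Klf2 differed widely between libraries of the same genotype (ENSMUSG00000055148.7; chromosome 8, 72319033 to 72321656, plus strand). It had 2.84 and 19.6 TPM in Stk40-/- cells and 7.83 and 22.7 TPM in wild-type cells. In both genotypes library 2 was the higher, by 6.88 times in Stk40-/- and 2.90 times in wild-type cells, and the genotypes overlapped. The replicate difference was larger in size than that of 97.4% of tested genes in Stk40-/- and of 93.0% in wild-type cells. The log2 fold change of -0.70 had an SE of 0.97 and a 95% interval from -3.32 to 1.92 (limma adjusted p = 0.794). Leaving out Stk40-/- library 1 made it 0.51 and leaving out Stk40-/- library 2 made it -1.91. Leaving out wild-type library 1 made it -1.42 and leaving out wild-type library 2 made it 0.011. The 57 other protein-coding genes within 2 Mb of Klf2 that averaged 5 TPM or more had a median log2 fold change of 0.08.

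Klf4, which LIF and STAT3 induce and which is 1 of the factors used to reprogram fibroblasts, was low (ENSMUSG00000003032.8; chromosome 4, 55527143 to 55532466, minus strand). It had 3.31 and 2.10 TPM in Stk40-/- cells and 1.13 and 2.07 TPM in wild-type cells. The groups did not overlap, but the values of library 2 differed by only 1.01 times, and those of library 1 by 2.92 times. Its fold change of 0.51 on the log2 scale (SE 0.39, 95% interval -0.54 to 1.57) did not pass (limma adjusted p = 0.640), and with each library centred on its median the groups overlapped. Klf4 was the 1 tested member with a positive value.

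The shares of the 3 KLF genes differed between libraries 1 and 2 in both genotypes. Their sum was 28.4 and 38.0 TPM in Stk40-/- cells and 34.6 and 39.3 TPM in wild-type cells, with overlapping groups (exact two-sided permutation p = 0.667). Klf2 made up 10.0% and 51.5% of that sum in the Stk40-/- libraries and 22.6% and 57.8% in the wild-type libraries. Klf5 made up 78.3% and 42.9% in Stk40-/- cells and 74.1% and 36.9% in wild-type cells. In both genotypes library 1 was mostly Klf5 and library 2 mostly Klf2. The ratio of Klf2 to Klf5, which no rescaling of a library can change, was 0.128 and 1.20 in Stk40-/- cells and 0.306 and 1.57 in wild-type cells.

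**Figure D3:**
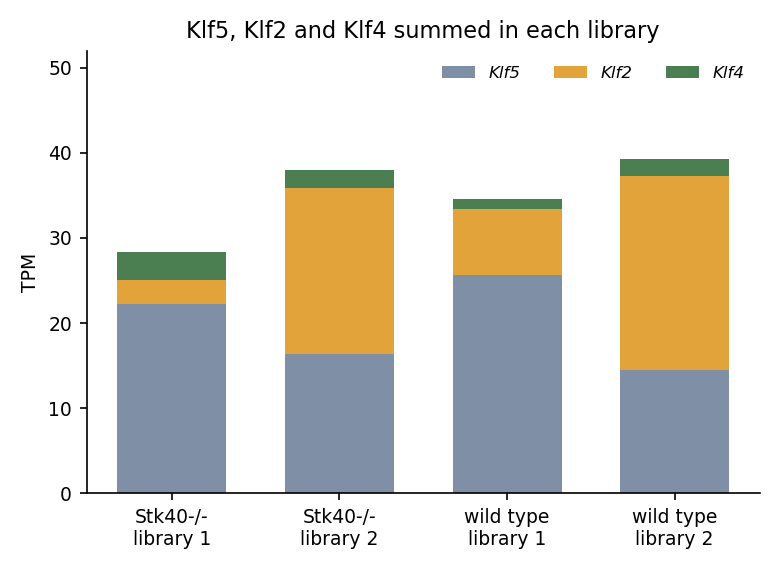
Stacked TPM of Klf5, Klf2 and Klf4 in each library, Stk40-/- on the left and wild type on the right. Klf5 is the main part of library 1 and Klf2 that of library 2 in both genotypes, while the totals range from 28.4 to 39.3 TPM.

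Other genes of the KLF family were also examined. Of 14, 11 were tested, 8 positive and 3 negative with a median log2 fold change of 0.11, and 0 were called. Klf6, a widely expressed member, was the most abundant at 61.4 and 99.1 TPM in Stk40-/- cells and 62.3 and 83.9 TPM in wild-type cells, and the 14 summed to 233 and 285 TPM in Stk40-/- cells and to 203 and 242 TPM in wild-type cells, above the sum of the 3 naive KLF genes in every library. Klf10, a TGF-beta-inducible member, had 48.4 and 55.7 TPM in Stk40-/- cells and 28.9 and 39.0 TPM in wild-type cells (limma adjusted p = 0.412). Klf3 had 33.7 and 37.0 TPM in Stk40-/- cells and 33.4 and 24.4 TPM in wild-type cells. Klf15 went the other way, at 0.474 and 1.52 TPM in Stk40-/- cells and 2.36 and 2.26 TPM in wild-type cells (limma adjusted p = 0.577). Of the 11 tested genes 4 were higher and 2 lower without overlap, beside 27.5% and 16.6% of all tested genes.

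Esrrb encodes an orphan nuclear receptor that sustains self-renewal downstream of GSK3 inhibition (ENSMUSG00000021255.17; chromosome 12, 86361117 to 86521628, plus strand). It had 8.66 and 5.86 TPM in Stk40-/- cells and 6.97 and 7.75 TPM in wild-type cells. The Stk40-/- values enclosed both wild-type values. On the log2 scale the fold change was -0.04 (SE 0.24, 95% interval -0.69 to 0.62, limma adjusted p = 0.969). The means, 7.26 ± 1.98 TPM and 7.36 ± 0.549 TPM in Stk40-/- and wild-type cells (SD, n = 2 each), differed by less than the spread between libraries.

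Tfcp2l1 encodes a CP2-family factor, a target of STAT3 (ENSMUSG00000026380.10; chromosome 1, 118627945 to 118685168, plus strand). It had 2.13 and 3.92 TPM in Stk40-/- cells and 3.25 and 4.51 TPM in wild-type cells. Library 2 was the higher in both genotypes, and the genotypes overlapped. This gave a log2 fold change of -0.30 (SE 0.35, 95% interval -1.26 to 0.65, limma adjusted p = 0.751).

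Nr0b1, also called Dax1, encodes a corepressor-like nuclear receptor that binds OCT4 (ENSMUSG00000025056.4; chromosome X, 86191764 to 86195947, plus strand). It had 1.55 and 0.739 TPM in Stk40-/- cells and 1.52 and 1.84 TPM in wild-type cells. The values of library 1 were nearly equal, and Stk40-/- library 2 was the low one. Its log2 fold change was -0.35 (SE 0.42, 95% interval -1.47 to 0.78, limma adjusted p = 0.760), and it was -0.07 without Stk40-/- library 2. With each library centred on its median, or after quantile normalization, the genotypes did not overlap. Across the 364 other protein-coding genes of X that averaged 5 TPM or more the median was 0.07 and 42.9% were negative, against 38.0% of such genes in the genome.

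Tbx3 encodes a T-box repressor that is part of the naive network and is also expressed in extraembryonic endoderm and early mesoderm (ENSMUSG00000018604.18, chromosome 5, 119670669 to 119684724, plus strand). It had 0.724 and 2.42 TPM in Stk40-/- cells and 0.623 and 5.55 TPM in wild-type cells. Library 2 was the higher in both genotypes, by 3.34 times in Stk40-/- and 8.91 times in wild-type cells. With this spread the log2 fold change was -0.43 (SE 0.83, 95% interval -2.67 to 1.82, limma adjusted p = 0.866), and leaving out wild-type library 2 made it 0.58, while leaving out wild-type library 1 made it -1.43. The antisense gene Tbx3os1 overlaps Tbx3 and had 0.199 and 0 TPM in Stk40-/- cells and 1.10 and 0.564 TPM in wild-type cells, and the sources used here do not say whether counting used strand. Among endoderm markers Gata4 had 1.30 and 3.88 TPM in Stk40-/- cells and 0.656 and 3.77 TPM in wild-type cells, high in the same libraries as Tbx3. Foxa2 had 2.25 and 1.75 TPM in Stk40-/- cells and 3.27 and 2.25 TPM in wild-type cells, and Dab2 had 5.36 and 4.85 TPM in Stk40-/- cells and 6.46 and 5.93 TPM in wild-type cells. Sox17, Gata6 and Sox7 were at or below 0.239 TPM in every library, and 5 of the 8 markers stayed below 1 TPM throughout.

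Tcl1 encodes an AKT cofactor that promotes proliferation of embryonic stem cells (ENSMUSG00000041359.14; chromosome 12, 105216750 to 105222793, minus strand). It had 0.831 TPM and a listed 0 in the Stk40-/- libraries and 0.424 and 0.330 TPM in wild-type cells. The Stk40-/- values enclosed the wild-type ones, and the gene lay below the filter. Its neighbours Tcl1b1, Tcl1b2, Tcl1b3, Tcl1b4 and Tcl1b5 were listed at 0 in all 4 libraries. Of 16 relatives of the members 7 were tested, 4 positive and 3 negative with 0 called. Esrra, the estrogen-related receptor of energy metabolism, had 26.9 and 23.3 TPM in Stk40-/- cells and 25.4 and 27.1 TPM in wild-type cells, above Esrrb in every library.

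The members differed in how they varied between libraries of the same genotype. Klf2, Tfcp2l1 and Tbx3 were higher in library 2 of both genotypes and Klf5 was lower there, whereas Klf4, Esrrb, Nr0b1 and Zfp42 moved in opposite directions in the 2 genotypes. Thus 4 of the 8 moved the same way in both genotypes, beside 55.8% of all tested genes, so the members showed no excess of shared direction. The median size of the difference between replicates over the 8 tested members was 0.52 log2 units in Stk40-/- and 0.45 in wild-type cells, against 0.20 and 0.22 over all tested genes. Library 2 also held less T, the brachyury factor of the primitive streak, at 355 and 217 TPM in Stk40-/- libraries 1 and 2 and 1025 and 535 TPM in wild-type libraries 1 and 2. Stat3 went the same way, with 28.9 and 17.2 TPM in Stk40-/- cells and 27.9 and 18.9 TPM in wild-type cells, as did its feedback target Socs3, with 10.7 and 6.76 TPM in Stk40-/- cells and 11.7 and 7.73 TPM in wild-type cells. Sequencing used 2 instruments, and their assignment to libraries is unknown here. The part of streak cells, STAT3 transcripts or instrument in the library differences of the members was not tested.

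**Figure D4:**
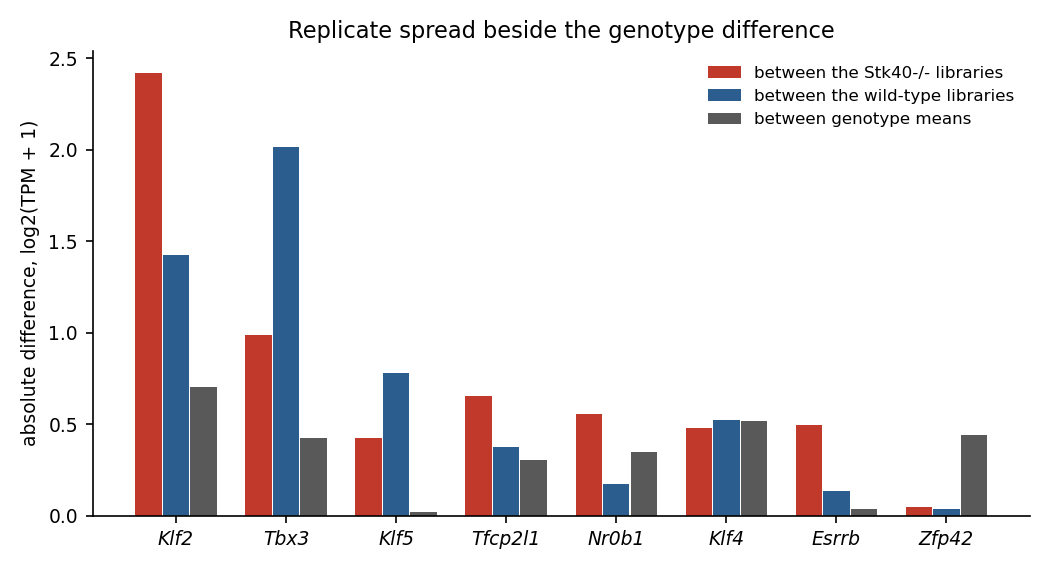
Absolute differences in log2(TPM + 1) for each tested member, between the Stk40-/- libraries, between the wild-type libraries and between the genotype means. For Zfp42 the genotype bar stands above both replicate bars; for the other 7 at least 1 replicate bar is taller.

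Among 13 other naive-state genes some differences were larger than those of the members. Of the 13, 12 were tested, 5 positive and 7 negative, with 0 called and a median log2 fold change of -0.12. Dppa5a, an RNA-binding protein of pluripotent cells, had 150 and 160 TPM in Stk40-/- cells and 290 and 326 TPM in wild-type cells (log2 fold change -0.98, SE 0.09, limma adjusted p = 0.165). The threonine dehydrogenase gene Tdh, whose enzyme feeds one-carbon metabolism in mouse embryonic stem cells, had 6.49 and 9.60 TPM in Stk40-/- cells and 13.9 and 19.0 TPM in wild-type cells. Fgf4, the ligand by which stem cells drive their own exit from the naive state, had 13.4 and 9.78 TPM in Stk40-/- cells and 3.13 and 5.90 TPM in wild-type cells (log2 fold change 1.22, SE 0.34, limma adjusted p = 0.401). Groups did not overlap in 7 of the 12, with Fgf4, Tet2, Ooep and Gdf3 higher and Dppa5a, Tdh and Gbx2 lower, beside 44.0% of all tested genes. The list of the state active just after the embryo's first division had 0 tested genes of 7, and 6 of them were below 1 TPM in every library.

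The core pluripotency list had 10 tested genes, 7 positive and 3 negative, with 0 called and a median of 0.14. Of these, 3 were higher and 1 lower without overlap, beside 27.5% and 16.6% of all tested genes. The lower one, Dppa4, had the smallest p of the list. It had 43.6 and 46.3 TPM in Stk40-/- cells and 73.6 and 67.1 TPM in wild-type cells (limma adjusted p = 0.270). Utf1 was higher, at 229 and 203 TPM in Stk40-/- cells and 125 and 148 TPM in wild-type cells (limma adjusted p = 0.306). Nanog, which naive factors sustain, had 219 and 166 TPM in Stk40-/- cells and 113 and 132 TPM in wild-type cells (limma adjusted p = 0.401). Sox2 had 20.3 and 32.6 TPM in Stk40-/- cells and 12.7 and 24.4 TPM in wild-type cells, with overlap. The primed and formative list had 11 tested genes, 10 positive and 1 negative, with a median of 0.59. The genotypes did not overlap in 9 of them, all higher in Stk40-/- cells, against 27.5% of all tested genes, and 0 were called. The list was chosen with earlier results of these data known, so this share is a description and no test. Otx2, a factor that redirects OCT4 to primed enhancers, had 22.9 and 12.9 TPM in Stk40-/- cells and 3.58 and 4.18 TPM in wild-type cells (limma adjusted p = 0.287). Fgf5, a marker of the postimplantation epiblast, had 10.3 and 7.01 TPM in Stk40-/- cells and 3.70 and 5.81 TPM in wild-type cells. Dnmt3b, a target of PRDM14 repression, had 129 and 163 TPM in Stk40-/- cells and 85.5 and 130 TPM in wild-type cells, with overlap.

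Genes of the inputs to the naive network were compared in the same way, and 0 were called in any of these lists. LIF and STAT3 signalling had 8 tested genes, 3 positive and 5 negative. Il6st, which encodes the gp130 subunit of the LIF receptor, had 17.6 and 14.6 TPM in Stk40-/- cells and 21.5 and 30.8 TPM in wild-type cells (limma adjusted p = 0.442). The GSK3, beta-catenin and TCF list had 10 tested genes, 6 positive and 4 negative, and Tcf7l1, the repressor of Esrrb, had 23.9 and 27.8 TPM in Stk40-/- cells and 22.4 and 23.8 TPM in wild-type cells. Axin2, with the smallest p of that list, went the other way, at 25.1 and 21.0 TPM in Stk40-/- cells and 38.3 and 29.8 TPM in wild-type cells (limma adjusted p = 0.441). The FGF and ERK list had 11 tested genes, 5 positive and 6 negative. Spry2, a feedback inhibitor of that pathway, had 23.1 and 22.1 TPM in Stk40-/- cells and 32.1 and 26.3 TPM in wild-type cells. Etv5, of the same list, went the other way, at 75.8 and 72.0 TPM in Stk40-/- cells and 62.3 and 64.1 TPM in wild-type cells (limma adjusted p = 0.473). Of 8 genes with roles in exit from the naive state 4 were positive and 4 negative. They include Tfe3, an X-linked factor that opposes exit and drives Esrrb when nuclear, which had 33.2 and 38.7 TPM in Stk40-/- cells and 83.8 and 84.8 TPM in wild-type cells (log2 fold change -1.21, SE 0.11, limma adjusted p = 0.165). Its folliculin regulator gene Flcn had 26.8 and 28.3 TPM in Stk40-/- cells and 32.9 and 36.7 TPM in wild-type cells.

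**Figure D5:**
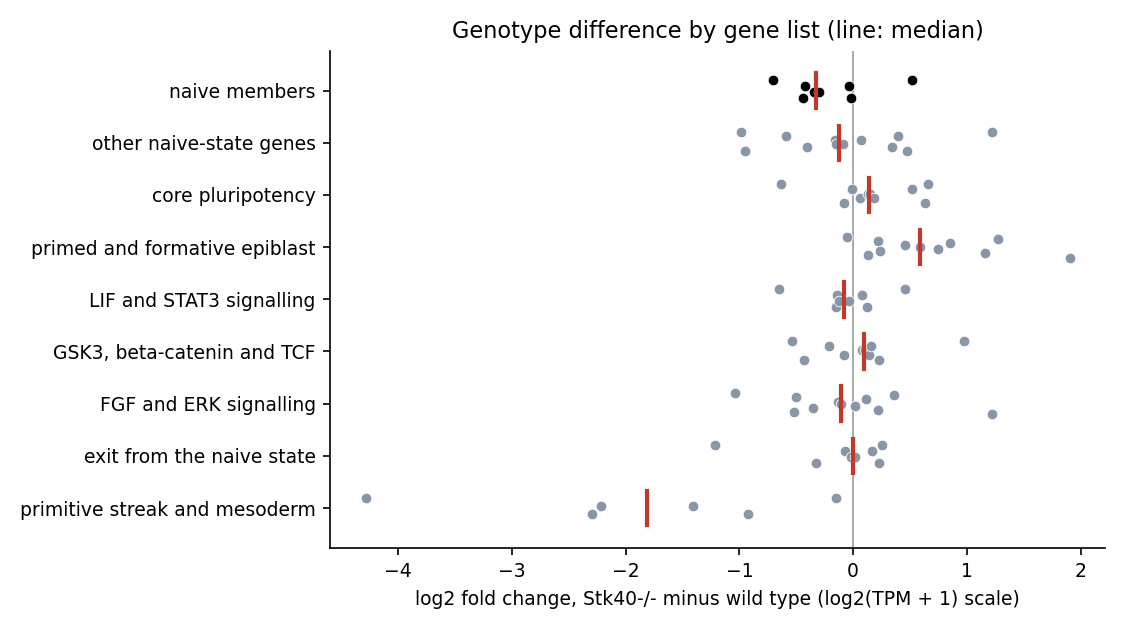
Log2 fold changes, Stk40-/- minus wild type, of the 8 tested members (black) and of the tested genes of 8 related lists (grey), with red lines at the medians. The members lie between -0.70 and 0.51, around a median of -0.32, and the primed list around 0.59.

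Markers of other cell types in which members can be expressed were read for their levels. Their lists were chosen with earlier results of these data known, so shares of genes without overlap are a description and no test. The streak and mesoderm list summed to 414 and 265 TPM in Stk40-/- cells and to 1255 and 637 TPM in wild-type cells, and all 6 tested genes of 10 were negative. Trophoblast markers, whose stem cells express Esrrb, summed to 729 and 587 TPM in Stk40-/- cells and to 1227 and 820 TPM in wild-type cells, mostly the keratins Krt8 and Krt18, and all 7 tested genes of 10 were negative. Cdx2, a trophoblast factor that posterior mesoderm also expresses, had 1.46 and 0.904 TPM in Stk40-/- cells and 11.1 and 9.03 TPM in wild-type cells. Ascl2 had 1.26 and 0.835 TPM in Stk40-/- cells and 3.92 and 3.94 TPM in wild-type cells, and Plac1 had 1.27 and 0.242 TPM in Stk40-/- cells and 3.86 and 4.08 TPM in wild-type cells. Both Stk40-/- values of these 3 lay below both wild-type values, while Elf5 was at or below 0.149 TPM in every library. In the trophoblast list 5 of the 7 tested genes were lower without overlap, beside 16.6% of all tested genes. Feeder markers summed to 294 and 302 TPM in Stk40-/- cells and to 422 and 403 TPM in wild-type cells. Most of this was Tagln alone, at 268 and 282 TPM in Stk40-/- cells and 385 and 359 TPM in wild-type cells. Of 7 tested genes of 10 there were 6 negative and 1 positive. The positive gene, Thy1, had 13.1 and 9.17 TPM in Stk40-/- cells and 7.28 and 9.42 TPM in wild-type cells, with overlap. Acta2, a smooth muscle actin, had 4.59 and 2.99 TPM in Stk40-/- cells and 14.3 and 11.7 TPM in wild-type cells, and the collagen gene Col1a1 had 3.96 and 3.74 TPM in Stk40-/- cells and 6.98 and 7.29 TPM in wild-type cells. The 6 negative genes, Col1a2, Col3a1, Pdgfrb and Tagln with them, were lower without overlap, beside 16.6% of all tested genes. Of these, Col3a1 (0.113 and 0.609 TPM) and Pdgfrb (0.751 and 0.420 TPM) were close to 0 in Stk40-/- cells. Postn and Lum were at or below 0.331 TPM in every library. Endoderm markers summed to 9.89 and 11.7 TPM in Stk40-/- cells and to 12.6 and 13.9 TPM in wild-type cells, with 1 positive and 2 negative among 3 tested. Endothelial markers, read because endothelium expresses Klf2 and listed after the values were seen, summed to 22.9 and 26.5 TPM in Stk40-/- cells and to 20.2 and 24.3 TPM in wild-type cells, mostly Eng. They had 2 tested genes of 9, both positive, and Emcn was listed at 0 throughout. The part of these cell types in the members' values was not tested.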

How the data were processed

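RNA sequencing values from 4 mouse libraries at day 3 were used, 2 Stk40-/- and 2 wild type, with genotype and library number taken from the titles. Per the labels' protocols, polyadenylated RNA was read in pairs on 1 of 2 instruments. The authors deposited gene-level TPM, as the file headers state, which sum to 1000000 in each library. The tools CASAVA 1.7 and Salmon 0.8.2 and the build hg38 appear in the submitters' processing notes, although the gene IDs are mouse, and the sources used here name no annotation. Sequencing depth cannot be read from TPM and is unknown. There were 0 unused per-sample columns.

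The 15739 genes averaging 1 TPM or more were fitted after log2 transformation (pseudocount 1) in R 4.3.3 with limma 3.58.1, an intensity trend, no replicate block, and Benjamini-Hochberg adjustment over all genes at 0.05. The procedure was tested on simulated data. Positions came from GENCODE vM21 on GRCm38, and 51633 of 51826 IDs matched without their version. The members and lists were chosen with earlier results of these data known. Named besides the members were up to 3 genes per list with the smallest p and a fixed set of regulators. Esrra, Elf5, Sox17, Gata6, Sox7, Postn, Lum, Krt8, Krt18, Col1a2, Col3a1, Pdgfrb and Thy1 were named after their values were seen. So were Tet2, Ooep, Gdf3, Gbx2, Prdm1, Nanos3, Emcn, Tbx3os1 and the Tcl1b genes. Alternatives covered the pseudocount, filter, variance model, scaling, replicate block and each library left out.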

Additional observations from a re-analysis of the deposited data

How the results depend on the processing

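In limma 0 genes and 0 members were called in the 14 alternatives run, and the smallest adjusted p of a member was 0.352. Of 108 member values under alternatives 99 kept their direction and 9 changed sign, all 9 with 1 library left out. Without wild-type replicate 1 the log2 fold change of Klf5 was 0.37. Without wild-type replicate 2 that of Klf2 was 0.011, of Esrrb 0.03 and of Tbx3 0.58. Without Stk40-/- replicate 1 that of Klf2 was 0.51, of Tfcp2l1 0.025 and of Tbx3 0.07. Without Stk40-/- replicate 2 that of Klf5 was 0.19 and of Esrrb 0.21. Leaving out 1 library, the value of Zfp42 ranged from -0.47 to -0.42, of Klf2 from -1.91 to 0.51, of Klf4 from 0.25 to 0.78, of Klf5 from -0.41 to 0.37, of Esrrb from -0.28 to 0.21, of Tfcp2l1 from -0.63 to 0.025, of Tbx3 from -1.43 to 0.58 and of Nr0b1 from -0.62 to -0.07. The number of members without overlap was 2, was also 2 with libraries centred on the median but with Nr0b1 in place of Klf4, was 3 with quantile normalization, was 1 with the filter at 5 TPM, where only 4 members were left, and ranged from 4 to 7 with 1 library left out, since 1 library overlaps less easily. The median of the members ranged from -0.43 to -0.05 and the difference of the summed TPM from -17.4 to -5.97 with 1 library left out, always negative. With a lone library its spread was assumed to be that of the other genotype.

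The replicate block gave 0 calls. Library numbers are shared by the genotypes, but with 2 pairs and no label for what a number marks the samples share only a number. The correlation of the library differences of the 2 genotypes was 0.09 over all tested genes and 0.17 over the 12910 that code for protein. A block cannot move a fold change in this balanced design, and for Klf2 it made the SE 0.31 in place of 0.97 (limma adjusted p = 0.432). The depth of the libraries is unknown, so the precision of Tcl1, Prdm14 and other low values cannot be given.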
